A study of Mus musculus with 11 samples.

Results

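Cytosolic nucleic acid sensing was examined through 9 genes, *Ddx58*, *Ifih1*, *Dhx58*, *Mavs*, *Zbp1*, *Trex1*, *Samhd1*, *Adar* and *Eif2ak2*. They were chosen by name, and all 9 were among the 19058 genes of the deposited count table and among the 13937 genes tested. RNA was sequenced from whole lacrimal glands of male NOD mice, a strain in which males spontaneously develop autoimmune inflammation of this tear gland. The groups were 3 WT mice, 5 *Tlr7* KO mice and 3 *Ifnar1* KO mice, all on the NOD background, with 1 gland of each mouse giving 1 library. The *Tlr7* KO line was made by CRISPR/Cas9 editing and carries a 2-base-pair deletion in the gene of the endosomal RNA receptor TLR7. The *Ifnar1* KO mice carry an edited *Ifnar1* allele on both chromosomes and lack a working type I interferon (IFN) receptor. Both losses are in every cell of the animal rather than in the gland alone. WT and *Tlr7* KO mice were 20 to 22 weeks old, and for the *Ifnar1* KO mice the sources used here give only a wider range that covers all mice of the study. A further *Ifnar1* KO mouse had been dropped by the authors because its transcripts and gland inflammation resembled those of WT, so that the *Ifnar1* KO group, on which every comparison with it rests, was in part selected on such measures. The study asked which gland transcripts depend on TLR7 and which on type I IFN signaling.

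Cells detect stray RNA and DNA in the cytosol with receptors that are separate from the endosomal Toll-like receptors such as TLR7. The helicases RIG-I (*Ddx58*) and MDA5 (*Ifih1*) bind viral or mislocalized double-stranded RNA and pass the signal to MAVS, an adaptor on the mitochondrial membrane, which leads to production of type I IFN. IFN then acts through IFNAR1 on the same and neighboring cells and raises the sensors themselves, so that many of these genes are also IFN-stimulated. Other proteins keep the system in check, since TREX1 and SAMHD1 remove DNA or its building blocks and ADAR edits double-stranded RNA so that it no longer looks foreign. Loss of such regulators causes type I interferonopathies in humans, and IFN signatures are a known feature of Sjögren syndrome, the human disease of tear and salivary glands.

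The promoters of these genes are shown because IFN-activated factors bind a short element, the IFN-stimulated response element, near the start of many IFN-stimulated genes. Windows of 300 bases, from 250 bases before to 50 after an annotated gene start, were taken from RefSeq (GRCm38.p6) and held 10 windows for 7 of the 9 members. *Zbp1* and *Dhx58* were not among them. A 9-letter pattern of the element, GAAANNGAA, where N is any base, was searched on both strands, so that its reverse complement counts too. It was found in 2812 of 32851 windows (8.56%) and in 4 of the 10 member windows, those of *Ifih1*, *Ddx58*, *Eif2ak2* and the most downstream of the 3 *Adar* starts. With 1 more A required at its end, it was found in 3.44% of all windows and in those of *Ifih1*, *Ddx58* and *Eif2ak2*. The sequences with a match follow, 5′ to 3′ on the strand of the gene, with matched letters in capitals. The *Mavs* window is added because *Mavs*, with TMM scaling, was called higher than WT in both KO groups.
Ddx58, chr4:40239776-40240075, minus strand: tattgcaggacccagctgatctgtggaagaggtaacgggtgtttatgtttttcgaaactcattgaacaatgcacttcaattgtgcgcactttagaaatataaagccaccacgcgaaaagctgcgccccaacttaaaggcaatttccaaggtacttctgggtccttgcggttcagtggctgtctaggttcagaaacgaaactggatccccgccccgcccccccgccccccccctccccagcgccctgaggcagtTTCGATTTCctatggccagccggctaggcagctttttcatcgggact
Ifih1, chr2:62646206-62646505, minus strand: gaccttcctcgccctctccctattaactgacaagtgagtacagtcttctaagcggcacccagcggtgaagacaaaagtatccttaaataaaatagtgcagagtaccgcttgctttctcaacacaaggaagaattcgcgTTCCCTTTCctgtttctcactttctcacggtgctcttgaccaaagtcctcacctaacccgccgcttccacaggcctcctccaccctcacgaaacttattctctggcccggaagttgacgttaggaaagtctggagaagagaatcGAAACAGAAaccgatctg
Eif2ak2, chr17:78882523-78882822, minus strand: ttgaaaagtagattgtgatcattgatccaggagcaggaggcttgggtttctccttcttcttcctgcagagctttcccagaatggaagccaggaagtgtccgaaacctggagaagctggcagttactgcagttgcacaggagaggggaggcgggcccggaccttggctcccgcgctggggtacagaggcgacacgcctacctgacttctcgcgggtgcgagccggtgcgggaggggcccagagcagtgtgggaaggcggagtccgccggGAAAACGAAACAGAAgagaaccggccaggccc
Adar, chr3:89730468-89730767, plus strand: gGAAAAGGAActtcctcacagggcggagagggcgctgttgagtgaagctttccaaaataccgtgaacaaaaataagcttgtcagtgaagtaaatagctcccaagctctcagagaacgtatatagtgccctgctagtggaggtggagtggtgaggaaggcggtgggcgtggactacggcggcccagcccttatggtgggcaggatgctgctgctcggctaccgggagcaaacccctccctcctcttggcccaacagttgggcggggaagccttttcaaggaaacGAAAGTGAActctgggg
Mavs, chr2:131233813-131234112, plus strand: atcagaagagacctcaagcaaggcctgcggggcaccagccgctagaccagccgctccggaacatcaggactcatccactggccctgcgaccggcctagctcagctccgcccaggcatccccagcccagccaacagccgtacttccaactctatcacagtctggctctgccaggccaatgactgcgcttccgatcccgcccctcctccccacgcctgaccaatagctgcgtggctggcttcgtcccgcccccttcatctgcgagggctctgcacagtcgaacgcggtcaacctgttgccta
In *Eif2ak2* the matches overlapped, at positions 269 to 277 and 275 to 283 of the window, just after the annotated start. *Ifih1* had 2 matches, at positions 139 to 147 and 283 to 291, and *Ddx58* had 1, at positions 254 to 262. The *Mavs* window had none of these letters, nor did those of *Samhd1* or *Trex1*. A match is a description of the letters and not a measured binding site.

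Between 20512315 and 28814250 counts per mouse were assigned to genes, and levels are given as CPM, read counts scaled to a common library size with TMM factors, with a floor of 3 counts at 0.0819 to 0.158 CPM. Floors cover counting error only. *Tlr7* was at 1.52 to 2.94 CPM in WT, 0.494 to 0.949 CPM in *Tlr7* KO and 0.251 to 0.822 CPM in *Ifnar1* KO, and *Ifnar1* at 10.50 to 15.1, 8.34 to 11.2 and 8.34 to 9.63 CPM, so neither transcript alone tells the KO lines apart. The 5 markers of lacrimal acinar cells were detected in every group, summing to 1750 to 2925 CPM in WT and 5093 to 5915 CPM in the KO mice. Several libraries stood apart. WT 2 had less of the 8 B cell markers (80.4 CPM) than WT 1 (280.1 CPM) and WT 3 (245 CPM). Markers of salivary gland, a neighboring tissue, summed to 2614 CPM in WT 3, 2343 CPM in *Ifnar1* KO 2 and 181 CPM in *Ifnar1* KO 1, and to no more than 2.32 CPM elsewhere. Muscle markers summed to 299 CPM in WT 1, 212 CPM in WT 2 and 214 CPM in *Tlr7* KO 4, and to no more than 8.67 CPM elsewhere. The part of muscle RNA in the results was not tested, and *Ifnar1* KO against WT is also given without the libraries highest in salivary gland markers.

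Of the RNA helicases, *Ddx58* (chromosome 4, 40203773 to 40239828, GRCm38, minus strand) stood at 19.4, 7.59 and 16.7 CPM in the WT mice, at 13.5, 18.7, 12.9, 10.8 and 11.2 CPM in *Tlr7* KO, and at 5.78, 6.05 and 4.19 CPM in *Ifnar1* KO. Every *Ifnar1* KO mouse lay below every other mouse, and the *Tlr7* KO mice lay within the WT range. The mean in *Ifnar1* KO was 36.6% of the WT mean, and that in *Tlr7* KO was 91.9%. *Ifih1* (chromosome 2, 62595798 to 62646255), the sensor of long double-stranded RNA, was at 11.2, 5.52 and 9.31 CPM in WT, at 7.46, 14.6, 9.87, 9.22 and 9.13 CPM in *Tlr7* KO, and at 3.71, 6.65 and 2.76 CPM in *Ifnar1* KO. Its *Ifnar1* KO mice lay below all *Tlr7* KO mice but overlapped WT through WT 2. *Dhx58* (chromosome 11, 100694884 to 100704271) encodes LGP2, which lacks the signaling domains of the other helicases and tunes their activity. It was at 5.81, 1.69 and 5.16 CPM in WT, at 2.14, 3.999, 2.66, 2.35 and 3.38 CPM in *Tlr7* KO, and at 0.681, 1.08 and 0.879 CPM in *Ifnar1* KO. The *Ifnar1* KO mice were again the lowest, at 20.9% of the WT mean. *Dhx58* overlaps a gene on the other strand, *Dhx58os*, and whether the counting used strand is not stated in the sources used here.

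The adaptor *Mavs* (chromosome 2, 131234063 to 131248025, plus strand) took the opposite order. It was at 16.5, 16.4 and 17.2 CPM in WT, at 20.7, 23.9, 22.2, 22.5 and 21.1 CPM in *Tlr7* KO, and at 24.8, 25.3 and 25.7 CPM in *Ifnar1* KO mice. No group overlapped another, with WT lowest and *Ifnar1* KO highest. The place of WT in this order depended on the TMM factors, since with library size only *Mavs* was at 23.5, 14.3 and 25.4 CPM in WT, 14.5 to 22.1 CPM in *Tlr7* KO and 24.1 to 27.1 CPM in *Ifnar1* KO, so that the WT range overlapped both others and the *Tlr7* KO mean (19.6 CPM) lay below that of WT (21.1 CPM). *Mavs* also varied least between mice of a group, with an SD of 2.61% of the mean in WT, where the SD of the other 8 members was between 24.8% (*Eif2ak2*) and 60.3% (*Zbp1*). With library size only the SD of *Mavs* in WT was 28.3% of the mean, beside 45.4% to 70.04% for the other 8.

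*Zbp1* (chromosome 2, 173206612 to 173218923) encodes a receptor for Z-form nucleic acids that can start cell death through RIPK3. It was at 16.4, 3.58 and 13.5 CPM in WT, 3.10, 8.04, 2.13, 2.099 and 5.81 CPM in *Tlr7* KO, and 0.681, 1.90 and 0.251 CPM in *Ifnar1* KO. Every *Ifnar1* KO mouse lay below every *Tlr7* KO mouse, and the WT and *Tlr7* KO ranges overlapped. *Eif2ak2* (chromosome 17, 78852564 to 78882573) encodes PKR, a kinase that stops translation when it binds double-stranded RNA. It was at 10.97, 6.66 and 10.2 CPM in WT, 9.03, 15.1, 11.4, 8.97 and 11.7 CPM in *Tlr7* KO, and 6.70, 8.55 and 5.90 CPM in *Ifnar1* KO. *Adar* (chromosome 3, 89715022 to 89753446), the RNA editing enzyme, was at 32.0, 13.5 and 28.7 CPM in WT, at 28.7, 36.7, 26.9, 24.4 and 27.0 CPM in *Tlr7* KO, and at 8.95, 20.4 and 8.21 CPM in *Ifnar1* KO. In both genes the *Ifnar1* KO mice lay below all *Tlr7* KO mice, while WT 2 lay among the *Ifnar1* KO values.

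Of the genes that remove DNA or its precursors, *Samhd1* (chromosome 2, 157097533 to 157135265), which breaks down the nucleotides needed for DNA synthesis, was at 59.7, 20.2 and 50.6 CPM in WT, at 18.2, 29.7, 15.5, 15.0 and 23.5 CPM in *Tlr7* KO, and at 10.2, 15.8 and 7.49 CPM in *Ifnar1* KO. Its *Tlr7* KO mean was 46.9% of the WT mean, lower than for any member but *Zbp1* (37.9%). *Trex1* (chromosome 9, 109057933 to 109059734), a DNA exonuclease, was at 9.57, 2.83 and 7.54 CPM in WT, at 6.12, 8.17, 6.91, 4.73 and 5.38 CPM in *Tlr7* KO, and at 2.82, 3.74 and 1.84 CPM in *Ifnar1* KO. *Trex1* lies within *Atrip* on the same strand, so that reads may be divided between them. A second deposited table listed *Trex1* at 0 in every mouse, and its values are uncertain for that reason.

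**Figure D1:**
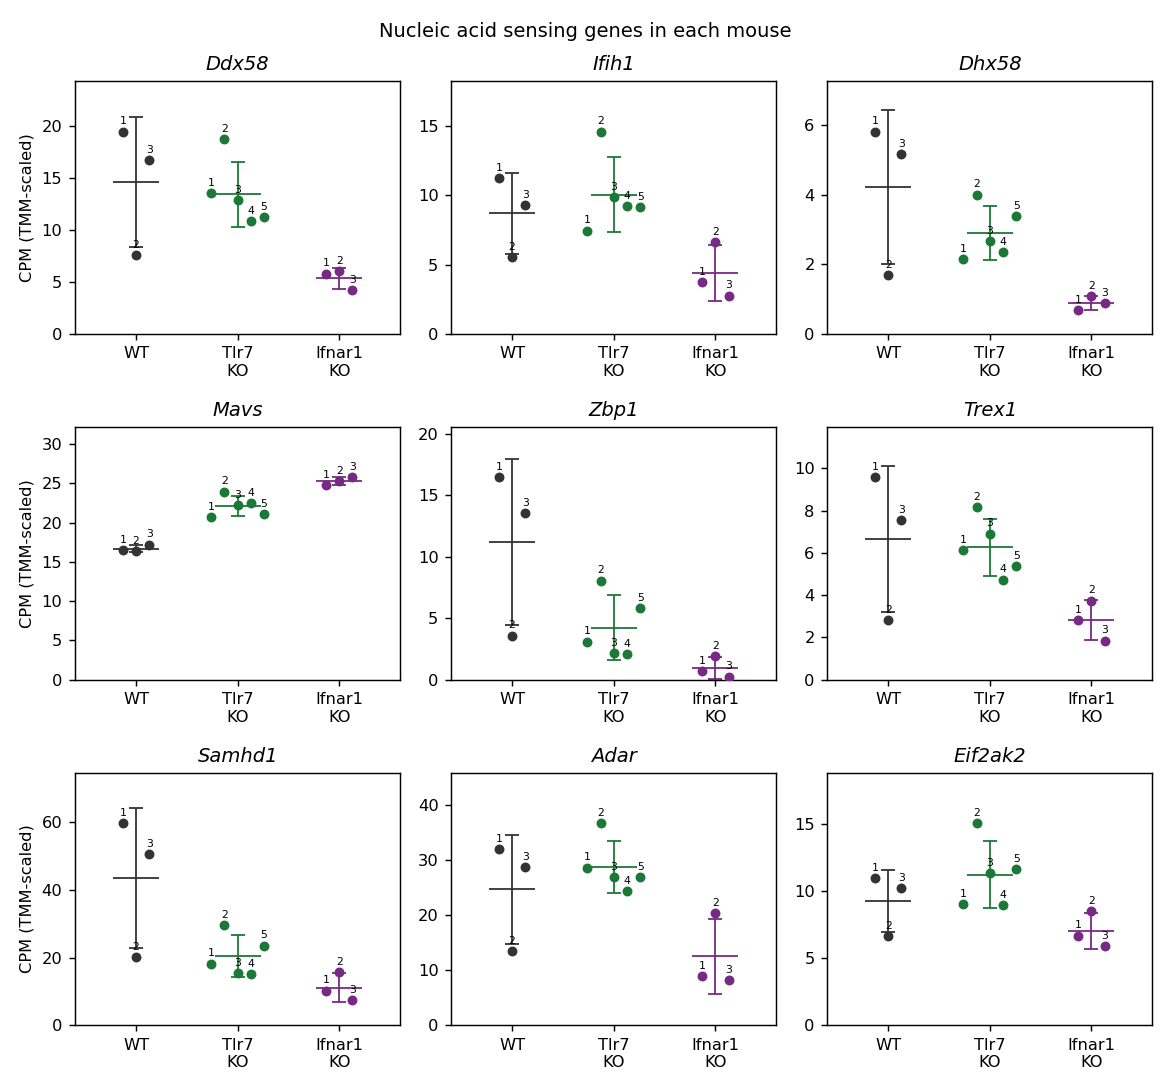
Each panel plots 1 gene, with CPM after TMM scaling on the vertical axis and the 3 genotypes on the horizontal axis. Points are single mice with their replicate number, and bars show the mean and SD. With this scaling *Mavs* separates into 3 levels with WT lowest, which is lost with library size only, and WT 2 lies far below WT 1 and WT 3 in the other genes.

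The same mouse was at 1 end of its group for most members. WT 2 was the lowest WT mouse for all 9 members, *Tlr7* KO 2 was the highest *Tlr7* KO mouse for all 9, and *Ifnar1* KO 2 was the highest of its group for 8, with *Mavs* as the exception. For the members other than *Mavs*, the level in WT 2 was between 23.9% (*Zbp1*) and 62.8% (*Eif2ak2*) of the mean of the other WT mice. The same 3 mice were at the same end of their groups in immune markers. The 8 T cell markers summed to 26.2 CPM in WT 2 against 84.0 and 63.5 CPM in WT 1 and WT 3, to 31.5 CPM in *Tlr7* KO 2 against 5.96 to 12.01 CPM in the other *Tlr7* KO mice, and to 15.4 CPM in *Ifnar1* KO 2 against 5.07 and 1.55 CPM. The 7 macrophage and monocyte markers summed to 181 CPM in WT 2 (328 and 237 CPM in the others), 186 CPM in *Tlr7* KO 2 (160 to 182 CPM) and 144 CPM in *Ifnar1* KO 2 (71.9 and 51.7 CPM). The part of immune cell content in the member values was not tested, and in bulk tissue fewer cells of a type and less RNA per cell cannot be told apart.

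Levels of different genes were compared per kilobase of annotated exon, merged over all transcripts of a gene. The transcripts present in the gland may be shorter, which was not measured, so the order of genes may depend on this length. In WT, *Trex1* (5.79 ± 3.02 CPM per kb, SD, n = 3), *Mavs* (4.99 ± 0.130) and *Samhd1* (4.75 ± 2.26) were the highest, and *Dhx58* (1.29 ± 0.678) and *Ifih1* (1.06 ± 0.356) the lowest, but no neighbors in the WT order differed beyond their SDs. In *Ifnar1* KO, *Mavs* led with 7.55 ± 0.146 CPM per kb and lay clear of *Trex1*, next in order at 2.44 ± 0.825. The remaining neighbors overlapped, down to *Dhx58* (0.269 ± 0.0615) and *Zbp1* (0.268 ± 0.243). In *Tlr7* KO, *Mavs* (6.60 ± 0.385 CPM per kb, SD, n = 5) and *Trex1* (5.46 ± 1.17) overlapped at the top, *Adar* (3.54 ± 0.581) lay apart from the genes on both sides of it, and the genes below overlapped with the next in order. In all 3 genotypes the adaptor was present at a higher level per length than each of the receptors that signal through it, with *Ddx58* at 2.07 ± 0.882, 1.90 ± 0.447 and 0.758 ± 0.143 CPM per kb and *Ifih1* at 1.06 ± 0.356, 1.23 ± 0.330 and 0.536 ± 0.248 CPM per kb in WT, *Tlr7* KO and *Ifnar1* KO.

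Loss of TLR7 was compared with WT to ask whether these genes depend on it. Of the 9 members, *Samhd1* fell and *Mavs* rose in *Tlr7* KO glands, and the other 7 did not pass the test. With edgeR's quasi-likelihood test and an adjusted p under 0.05, 1 member was called lower, where 17.4% of all genes tested were, and 1 was called higher, where 15.3% were, so that the members' share did not exceed the background. *Samhd1* fell by 1.10 on the log2 scale (SE 0.331, adjusted p = 0.0312), a 2.14-fold lower level. *Mavs* rose by 0.40 on the log2 scale (SE 0.0722, adjusted p = 0.00434), or 1.32-fold, a direction that turned with library size only. *Mavs* was also the member whose groups did not overlap, in the higher direction beside 16.6% of all genes, and 0 members were without overlap in the lower direction, beside 14.2% of all genes. *Zbp1* had a log2 fold change of -1.42 (SE 0.536, adjusted p = 0.0682), and was called lower with library size only (-2.08, adjusted p = 0.0143) and without *Tlr7* KO 2 (-1.80, adjusted p = 0.0307). *Dhx58* was at -0.56 (SE 0.360, adjusted p = 0.26), and *Ddx58*, *Trex1*, *Ifih1*, *Adar* and *Eif2ak2* were between -0.13 and 0.26 (adjusted p = 0.358 to 0.844). For these 5 genes the 95% intervals of the log2 fold change reached no lower than -0.84 (*Trex1*) and no higher than 0.77 (*Adar* and *Ifih1*). The median over the members was -0.10, beside -0.04 over all genes tested. In the same comparison 8 of 8 B cell, 6 of 8 T cell and 3 of 7 macrophage and monocyte markers were called lower, with medians of -3.26, -1.92 and -0.51, while 3 of 5 lacrimal acinar markers were called higher and 1 lower, with a median of 0.35. Of the dendritic cell markers, 2 of 6 were called lower (median -1.44). All 3 salivary gland markers tested were called lower (median -9.997) but 0 by DESeq2, and among WT mice WT 3 held most of this RNA (2614 CPM). The part of these cells and tissues in the values of *Samhd1* and *Mavs* was not tested.

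These calls rested in part on single mice and on the scaling. Without WT 2, *Samhd1* (-1.44, adjusted p = 0.00125), *Zbp1* (-1.84, adjusted p = 0.00848) and *Dhx58* (-0.93, adjusted p = 0.00899) were all lower in *Tlr7* KO and *Mavs* was higher, which made 3 members lower beside 24.9% of all genes and 1 higher beside 22.9%. The *Samhd1* call was lost without WT 1, WT 3 or *Tlr7* KO 1, 3 or 4 (highest adjusted p = 0.134), and the *Mavs* call held without each mouse in turn. When only library size was used for scaling, the median of all genes moved to -0.54 and that of the members to -0.70. *Mavs* was then at -0.10 (adjusted p = 0.72), above that median and not called.

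Loss of the type I IFN receptor was compared with WT to ask whether these genes depend on IFN signaling. *Ddx58*, *Dhx58*, *Zbp1* and *Samhd1* fell in *Ifnar1* KO glands and *Mavs* rose. These 4 of 9 members called lower stood beside 12.4% of all genes tested, and the 1 called higher beside 6.76%. *Zbp1* fell by 3.58 on the log2 scale (SE 0.757, adjusted p = 0.0255), an 11.99-fold lower level, with a 95% interval from -5.36 to -1.81. *Dhx58* fell by 2.29 (SE 0.480, adjusted p = 0.0253), *Samhd1* by 1.99 (SE 0.428, adjusted p = 0.026) and *Ddx58* by 1.48 (SE 0.342, adjusted p = 0.0295). The same 4 genes were those without overlap in the lower direction, beside 21.8% of all genes. *Mavs* rose by 0.58 on the log2 scale (SE 0.0962, adjusted p = 0.0219), or 1.49-fold, with no overlap between the groups, beside 19.3% of all genes in the higher direction. With library size only it was at 0.27 (adjusted p = 0.573) and not called, while the median of all genes moved to -0.31. The other 4 members had negative values that did not pass the test: *Trex1* -1.28 (adjusted p = 0.0848), *Ifih1* -1.02 (adjusted p = 0.0903), *Adar* -1.01 (adjusted p = 0.131) and *Eif2ak2* -0.43 (adjusted p = 0.214). DESeq2 called 6 members lower, beside 15.0% of all genes, the same 4 with *Trex1* (adjusted p = 0.0326) and *Ifih1* (adjusted p = 0.0473). The median over the members was -1.28, beside -0.02 over all genes. In the same comparison 8 of 8 B cell, 7 of 8 T cell and 4 of 7 macrophage and monocyte markers were called lower, with medians of -4.28, -2.95 and -1.12, while 2 of 5 acinar markers were called higher and 1 lower, with a median of 0.45. The part of these cells in the members' values was not tested.

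WT 2 bore on this comparison as well. Without it, all 8 members other than *Mavs* were called lower, beside 20.2% of all genes, and *Mavs* higher, beside 13.3%. *Eif2ak2* had the smallest of these values (-0.62, adjusted p = 0.033). When WT 1, WT 3 or *Ifnar1* KO 1 or 3 was left out, edgeR called no member, and no more than 121 of all 13937 genes, while at an unadjusted p under 0.05 4 members were lower and 1 higher in each case. That unadjusted threshold is passed widely: with all mice, 5235 of 13937 genes did so in either direction, beside 7 members lower and 1 higher. The share of all genes passing it without WT 1, WT 3 or *Ifnar1* KO 1 or 3 was not counted. The member counts of those fits therefore have no background of their own. Without *Ifnar1* KO 2, *Adar* (-1.55), *Ifih1* (-1.44), *Dhx58*, *Samhd1* and *Zbp1* (-4.56) were called lower, beside 8.26% of all genes, *Mavs* higher, beside 3.15%, and *Ddx58* (-1.57, adjusted p = 0.058) was not called. When WT 3 and *Ifnar1* KO 2, the libraries with most salivary gland RNA, were both left out, a choice made after the data were seen, *Zbp1* was called (-4.40, adjusted p = 0.0467), beside 3.14% of all genes called lower and 0.287% higher, and the median over the members was -1.43. In that fit of 2 against 2 mice *Ddx58* (-1.45), *Dhx58* (-2.28), *Samhd1* (-2.19) and *Mavs* (0.61) kept values near those of all mice and were not called (adjusted p = 0.0638 to 0.12). Under every alternative that gave a value, each of the 8 genes kept a negative value and *Mavs* a positive one.

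**Figure D2:**
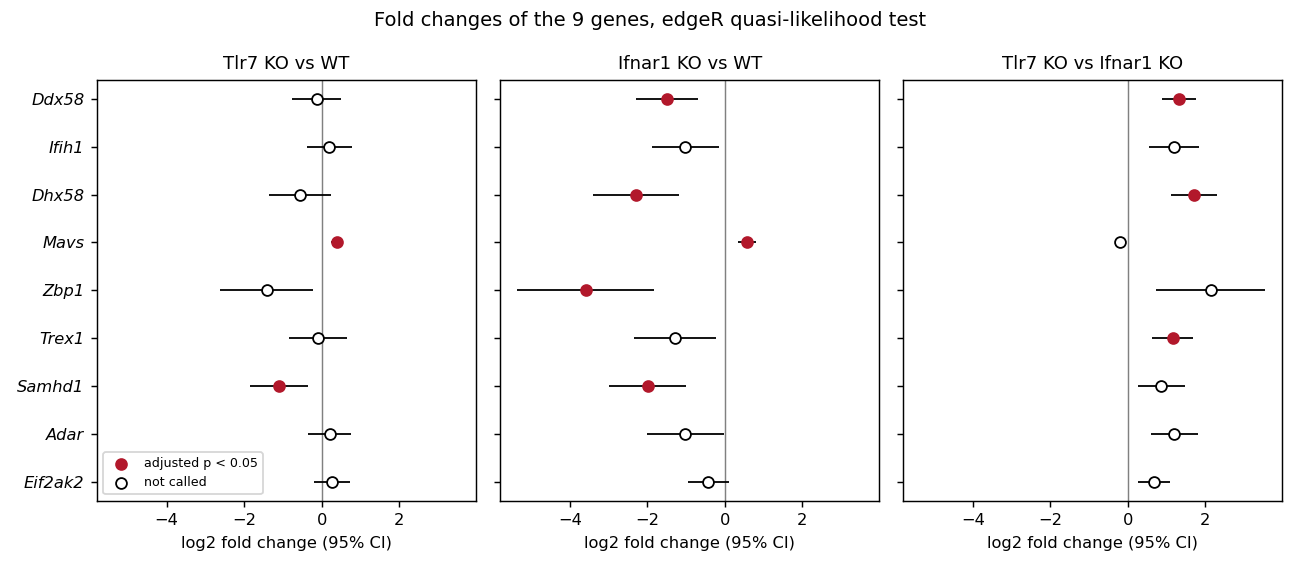
The log2 fold change of each gene is plotted with its 95% interval in the 3 comparisons, with filled points at an adjusted p under 0.05. In the comparison of *Tlr7* KO with WT most intervals span 0, whereas in *Ifnar1* KO glands *Zbp1* has the lowest value (-3.58) and *Mavs* a positive one (0.58).

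The KO lines were compared with each other directly, which leaves out WT 2 and the other WT mice. *Ddx58*, *Dhx58* and *Trex1* were higher in *Tlr7* KO than in *Ifnar1* KO glands. These 3 of 9 members stood beside 0.926% of all genes tested, while no member was called lower, beside 0.868% of all genes. At an unadjusted p under 0.05, 1 member was lower, *Mavs*, and 8 were higher, beside 2270 of 13937 genes in either direction. DESeq2 called no member lower and 7 higher, beside 1.77% and 2.37% of all genes. *Dhx58* was higher by 1.72 on the log2 scale (SE 0.269, adjusted p = 0.0155), *Ddx58* by 1.33 (SE 0.196, adjusted p = 0.0126) and *Trex1* by 1.16 (SE 0.238, adjusted p = 0.0407), which are 3.29-fold, 2.51-fold and 2.23-fold differences. *Adar* (1.20, adjusted p = 0.0616) and *Ifih1* (1.20, adjusted p = 0.0708) did not pass the threshold, nor did *Eif2ak2* (0.67, adjusted p = 0.113), *Zbp1* (2.14, adjusted p = 0.135) and *Samhd1* (0.87, adjusted p = 0.155). In 7 members, all but *Samhd1* and *Mavs*, every *Tlr7* KO mouse lay above every *Ifnar1* KO mouse, where 5.52% of all genes did so. *Mavs* lay below without overlap, where 5.2% of all genes did, with a log2 fold change of -0.19 (SE 0.0637, adjusted p = 0.177). The median over the members was 1.20, beside 0.00107 over all genes. The 7 macrophage and monocyte markers lay in the same order, summing to 160 to 186 CPM in *Tlr7* KO and 51.7 to 144 CPM in *Ifnar1* KO, with a median of 0.81. EdgeR called 0 of them (5 higher at an unadjusted p under 0.05, and DESeq2 called 3). The medians of the 8 B cell and 8 T cell markers were 1.06 and 0.95 with 0 called (1 and 0 higher at an unadjusted p under 0.05, and 1 and 0 by DESeq2), and 3 of 3 salivary gland markers tested were called lower. The part of these cells and tissues in the member values was not tested.

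*Ddx58* was called without each mouse in turn, with log2 fold changes of 1.18 to 1.43. *Dhx58* lost its call without *Ifnar1* KO 1 or 3 (1.56 to 1.90 over all mice left out). *Trex1* kept its call only without *Ifnar1* KO 2 and ranged from 0.94 to 1.42, and with library size only it was at 0.97 (adjusted p = 0.118) and not called. Without *Ifnar1* KO 2, the mouse with the most immune marker RNA of its group, all 8 members other than *Mavs* were called higher, beside 3.72% of all genes, with *Zbp1* at 3.12 (adjusted p = 0.0302). EdgeR then called none lower, beside 2.58% (1, *Mavs*, at an unadjusted p under 0.05, which 3034 of 13937 genes passed in either direction). A fit of all 11 mice, which estimates a single spread that WT shares, called none of the members (*Ddx58* at 1.33, adjusted p = 0.0659, with 8 higher at an unadjusted p under 0.05), whereas DESeq2 called 7, all but *Zbp1* and *Mavs*. Values of *Tlr7* KO against WT and of *Ifnar1* KO against WT share the WT mice, and those against *Ifnar1* KO share the *Ifnar1* KO mice, so that the comparisons are not independent.

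**Figure D3:**
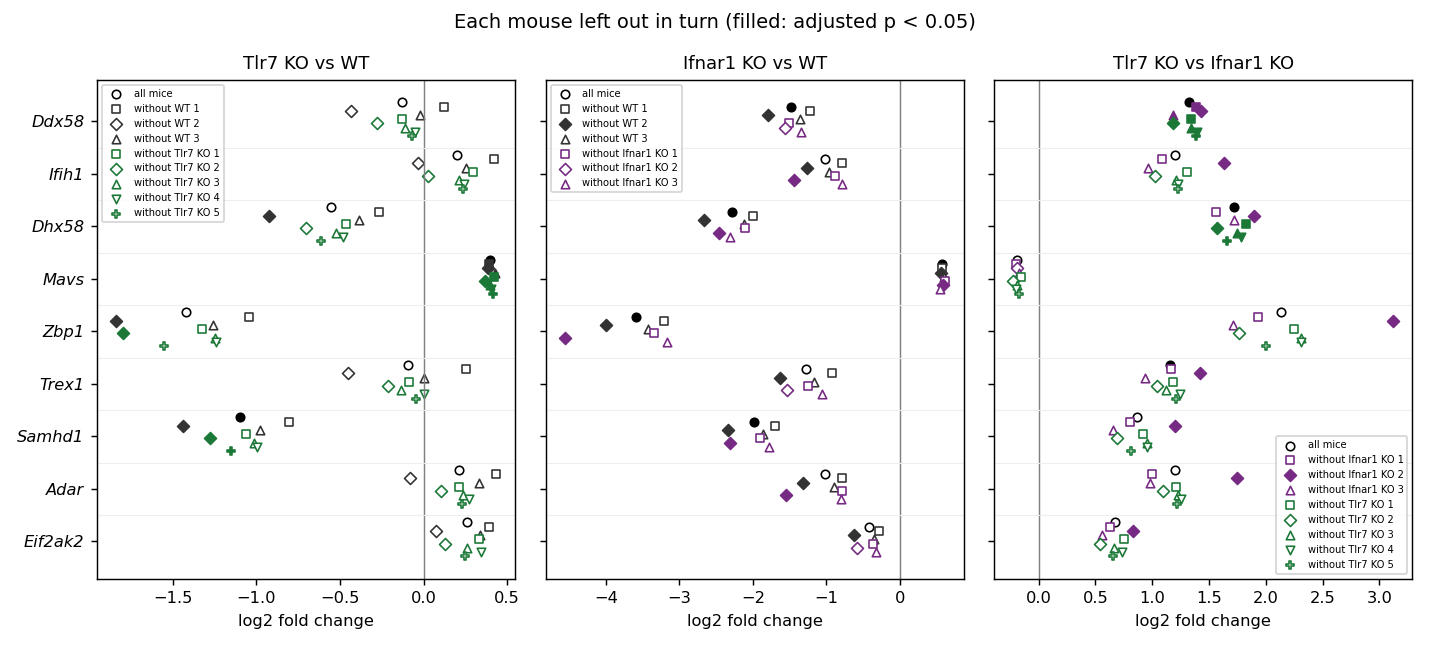
The log2 fold change of each gene is plotted with all mice and with each mouse left out, in 3 comparisons, with filled marks at an adjusted p under 0.05. In *Ifnar1* KO against WT the filled marks beside those of all mice come from leaving out WT 2 or *Ifnar1* KO 2, whereas *Ddx58* in *Tlr7* KO against *Ifnar1* KO is filled throughout.

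Other genes of the pathway were counted from lists by role, of which 57 of 62 genes were in the table and tested. In *Tlr7* KO against WT, 10 were called lower and 10 higher, beside 17.4% and 15.3% of all genes tested. In *Ifnar1* KO against WT, 12 were called lower and 2 higher (12.4% and 6.76% of all genes), and in *Tlr7* KO against *Ifnar1* KO, 1 was called lower and 2 higher (0.868% and 0.926%). Their medians were -0.09, -0.09 and 0.02, near those of all genes. Of the 14 cofactors and regulators of the RNA receptors, *Trim25*, the ubiquitin ligase that activates RIG-I, fell by 1.63 on the log2 scale in *Ifnar1* KO (adjusted p = 0.0364) and was 1.90 higher in *Tlr7* KO than in *Ifnar1* KO (adjusted p = 0.00921). It stood at 13.1 ± 5.66 CPM in WT (SD, n = 3), 16.2 ± 3.22 in *Tlr7* KO (n = 5) and 4.32 ± 1.82 in *Ifnar1* KO (n = 3), and *Tlr7* KO against WT was not called (0.30, adjusted p = 0.427). In all, 1 of these 14 genes was lower and 2 higher in *Tlr7* KO, beside 17.4% and 15.3% of all genes. In *Ifnar1* KO 2 were lower and 1 higher, beside 12.4% and 6.76%. With library size only the genes called higher were at -0.098 and -0.31 in *Tlr7* KO and 0.24 in *Ifnar1* KO, and were not called.

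Among the 12 genes of MAVS signaling, *Irf7*, the transcription factor that amplifies IFN production, was also lowest in *Ifnar1* KO. It was at 23.6 ± 11.6 CPM in WT, 18.1 ± 9.05 in *Tlr7* KO and 1.42 ± 0.849 in *Ifnar1* KO, which is a fall of 4.09 on the log2 scale in *Ifnar1* KO (adjusted p = 0.0207) and a level 3.67 higher in *Tlr7* KO than in *Ifnar1* KO (adjusted p = 0.00921). *Irf3*, its constitutive relative, rose by 0.24 in *Tlr7* KO (adjusted p = 0.019), which turned to -0.27 with library size only, and its value was 0.33 in *Ifnar1* KO (adjusted p = 0.0972). Together 2 of the 12 were called lower and 2 higher in *Tlr7* KO, beside 17.4% and 15.3% of all genes, and 3 lower and none higher in *Ifnar1* KO, beside 12.4% and 6.76% (1 higher at an unadjusted p under 0.05, and none by DESeq2).

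Of the 8 DNA sensors and adaptors, 2 were called lower and 2 higher in *Tlr7* KO, and 2 lower and 1 higher in *Ifnar1* KO, beside 17.4%, 15.3%, 12.4% and 6.76% of all genes in the same order, with medians of -0.16 and -0.14. *Tmem173*, which encodes the adaptor STING, fell by 1.73 on the log2 scale when TLR7 was absent (adjusted p = 0.00537) and by 2.42 when IFNAR1 was (adjusted p = 0.023), with 10.1 ± 4.45 CPM in WT, 3.06 ± 0.982 in *Tlr7* KO and 1.92 ± 0.912 in *Ifnar1* KO. *Aim2*, a sensor that forms inflammasomes on DNA, fell by 2.13 (adjusted p = 0.00662) and by 2.45 (adjusted p = 0.0261). Neither was called between the KO lines (adjusted p = 0.343 and 0.79). *Xrcc5*, which encodes the DNA end-binding protein Ku80, rose by 0.42 in *Tlr7* KO (adjusted p = 0.0121) and by 0.60 in *Ifnar1* KO (adjusted p = 0.0249), and *Mre11a*, a DNA repair nuclease, rose by 0.57 in *Tlr7* KO (adjusted p = 0.00887), but with library size only the *Xrcc5* values were -0.066 and 0.32, that of *Mre11a* was 0.052, and none of these was called. The DNA sensor gene *Cgas* was low throughout, at 1.02 ± 0.378, 0.830 ± 0.288 and 0.745 ± 0.144 CPM, and was called in no comparison. *Ripk3*, the kinase that ZBP1 recruits, fell by 2.06 in *Tlr7* KO (adjusted p = 0.0295), and its value was -2.51 in *Ifnar1* KO (adjusted p = 0.0629), at WT levels of 0.295 to 2.56 CPM.

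Of the 12 nucleases and editing enzymes, *Dnase1l3*, which digests DNA in extracellular particles, fell by 2.36 in *Tlr7* KO glands (adjusted p = 0.0146) and by 3.44 without the IFN receptor (adjusted p = 0.0235). *Pld4*, an exonuclease of endolysosomes, was at -1.62 in *Tlr7* KO on the log2 scale (adjusted p = 0.00847), and at -2.54 once IFNAR1 was lost (adjusted p = 0.0235). Beside the falls of *Tmem173*, *Aim2*, *Dnase1l3* and *Pld4*, all 8 B cell markers were called lower in both KO lines against WT (17.4% and 12.4% of all genes), with medians of -3.26 and -4.28, and summed to 80.4 to 280.1 CPM in WT, 6.42 to 50.4 CPM in *Tlr7* KO and 2.55 to 20.2 CPM in *Ifnar1* KO. In the same order, 6 and 7 of 8 T cell markers were called lower, and 3 and 4 of 7 macrophage and monocyte markers. Of the 6 dendritic cell markers, 2 and 1 were, beside the same shares of all genes. The part of all these cells in the falls was not tested. *Dnase1*, a secreted nuclease that was the most abundant gene of these lists in CPM, was at 2250 ± 1329 CPM in WT, 1423 ± 236 CPM in *Tlr7* KO and 3197 ± 646 CPM in *Ifnar1* KO. It differed between the KO lines (-1.16, adjusted p = 0.00983) and was called in neither against WT (-0.66, adjusted p = 0.124, and 0.49, adjusted p = 0.416), but with library size only it was lower than WT in *Tlr7* KO (-1.02, adjusted p = 0.00247). Salivary gland markers summed to 2343 CPM in *Ifnar1* KO 2, 181 CPM in *Ifnar1* KO 1 and 2614 CPM in WT 3, and to no more than 2.32 CPM elsewhere. The part of that tissue in the *Dnase1* values was not tested. *Adarb1*, a relative of *Adar*, rose by 0.69 in *Tlr7* KO (adjusted p = 0.0175), but was at 0.15 and not called with library size only. Of the 6 genes around PKR, edgeR called none lower in either KO against WT (0 at an unadjusted p under 0.05 and 0 by DESeq2), beside 17.4% and 12.4% of all genes, and 2 higher in *Tlr7* KO, beside 15.3%. These were *Dnajc3* (0.46, adjusted p = 0.0264) and *Eif2s1* (0.19, adjusted p = 0.0461), which with library size only were at 0.020 and -0.31 and not called.

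Of 7 products of the pathway, the chemokines *Cxcl10* and *Ccl5* were tested, and *Ifnb1* and 4 IFN-alpha genes were not analysed here. *Cxcl10* fell by 3.84 in *Ifnar1* KO (adjusted p = 0.0249) and was at -1.55 in *Tlr7* KO (adjusted p = 0.0897), where it was called with library size only (-2.23, adjusted p = 0.0199). *Ccl5* fell in both, by 2.78 in *Ifnar1* KO (adjusted p = 0.0219) and by 1.33 in *Tlr7* KO (adjusted p = 0.0171). Beside it, 6 of 8 T cell markers were called lower when TLR7 was absent and 7 when IFNAR1 was (17.4% and 12.4% of all genes), with medians of -1.92 and -2.95, and their part in this fall was not tested. As a comparison, 14 IFN-stimulated genes outside the 9 members were examined. A further listed gene was left out after its values were known, which moves the range and medians of this list. In *Tlr7* KO against WT their fold changes lay between -1.12 for *Oas2* and 0.64 for *Usp18*, with a median of -0.52. In *Ifnar1* KO 13 of 14 were called lower, beside 12.4% of all genes, with a median of -3.08. In *Tlr7* KO 13 of 14 were higher than in *Ifnar1* KO, beside 0.926% of all genes, with a median of 2.97. *Oas2* had no more than 3 counts in any *Ifnar1* KO mouse, and placing it at the floor left these medians as they were. The medians of the 9 members in the same comparisons were -0.10, -1.28 and 1.20.

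**Figure D4:**
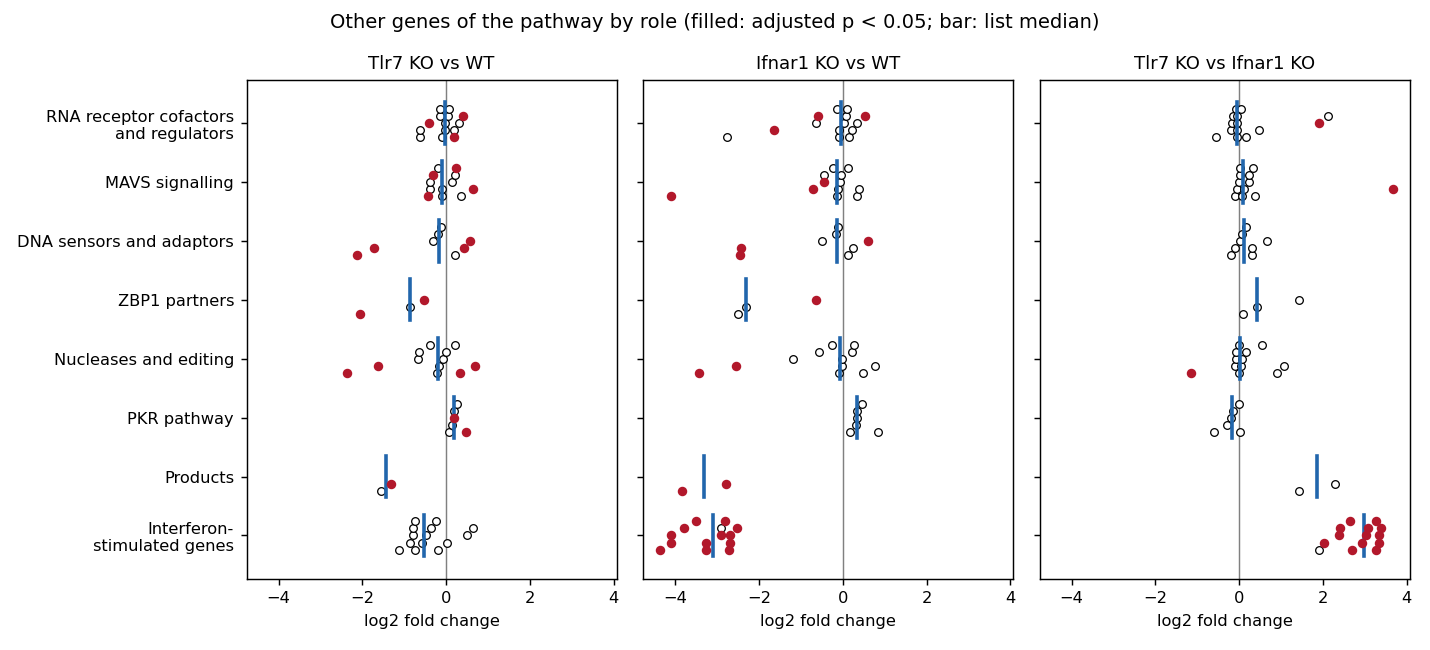
The log2 fold change of each listed gene is plotted by role in 3 comparisons, with filled points at an adjusted p under 0.05, blue bars at the list medians, and *Oas2* against *Ifnar1* KO drawn at the floor of 3 counts. The IFN-stimulated genes have medians of -3.08 and 2.97 in the comparisons with *Ifnar1* KO, beside -3.31 and 1.86 for the 2 products, while the medians of the RNA receptor cofactors and of MAVS signaling lie between -0.13 and 0.09.

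Genes with the most similar pattern were sought over the 11 mice among 7495 other genes that averaged 5 CPM or more, by Pearson's r of log2 CPM. These values describe mice that differ in genotype and share their scaling, and carry no p. *Stat2* was among the 3 nearest genes of 5 members, *Ddx58* (r = 0.971), *Ifih1* (0.97), *Trex1* (0.978), *Adar* (0.959) and *Eif2ak2* (0.93). The others nearest to *Ddx58* were *Ifit3* (0.964) and *Rnf31* (0.961), to *Ifih1* *Trim25* (0.973) and *Parp12* (0.968), to *Trex1* *Rnf31* (0.97) and *Zc3hav1* (0.952), to *Adar* *Trim25* (0.964) and *Usp18* (0.957), and to *Eif2ak2* *Rnf31* (0.924) and *Usp18* (0.922). *Dhx58* was nearest to *Ifit3* (0.988), *Slfn5* (0.973) and *Fcer1g* (0.967), the last a receptor subunit of myeloid and other immune cells. *Zbp1* was nearest to *Irgm1* (0.996), *Irf1* (0.993) and *Plac8* (0.989), and *Samhd1* to *Shisa5* (0.991), *Ly6e* (0.989) and *Selplg* (0.989), which encodes a selectin ligand of leukocytes. After the group means were taken out, these pairs had r of 0.886 to 0.99. The pairs had been picked by r over the same mice. WT 2, *Tlr7* KO 2 and *Ifnar1* KO 2 lay at an end of their groups for most members, which bears on these values too. *Mavs* was nearest to *Plcxd1* (0.965), *Psmc4* (0.963) and *Kdm5b* (0.961), and these fell to 0.486, 0.646 and 0.595 after the group means were taken out. Between members, *Zbp1* and *Samhd1* had r of 0.975, *Ddx58* and *Trex1* 0.969, and *Ifih1* and *Adar* 0.965. *Mavs* had negative r with each of the other 8, from -0.75 (*Samhd1*) to -0.13 (*Eif2ak2*). These r used TMM-scaled levels, on which the place of WT in *Mavs* depended, and were not computed with library size only.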

How the data were processed

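RNA of 11 lacrimal glands was analysed, 3 WT, 5 *Tlr7* KO and 3 *Ifnar1* KO. Libraries were run on an Illumina instrument by the authors, who quantified transcripts with salmon, summed to genes with tximport (Ensembl 97); the deposited table was taken to hold these estimated counts, as whole numbers. It is labelled as normalized, but its columns sum to 20512315 to 28814250, which is 1.64 to 1.84 times the totals of a second table in each mouse, so that depth had not been scaled out; some other adjustment by the authors could not be told from the values, and would change the CPM and the spread. The second deposited table, of counts for 39017 genes, which the submitters' notes place on mm10 with HISAT2 2.1.0, served as an alternative. It holds 1 column, named as a further *Ifnar1* KO mouse, that names no sample used here, and that column was not used.

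A gene was tested where its counts over the WT mice summed to 30 or more (13937 genes), in separate 2-group fits with TMM scaling and edgeR 4.0.16's quasi-likelihood test (R 4.3.3), two-sided, with Benjamini-Hochberg adjustment over all genes tested and calls at an adjusted p under 0.05. SEs came from the fold change and its F value. CPM used TMM factors over all mice. Gene lengths and positions came from GENCODE M21 (GRCm38), and promoters from RefSeq (GRCm38.p6). Genes were named by a rule: all 9 members, the targeted genes, listed pathway genes called with at least 2-fold change or best known in their role, and the 3 genes most like each member; *Adarb1*, *Dnajc3*, *Eif2s1*, *Mre11a* and *Xrcc5* were named after their values were seen. Alternatives were DESeq2 1.42.0, RLE factors, library size only, other gene filters, the second table, 1 fit of all mice, a replicate block and leaving out each mouse. The script was tested on simulated data. The members and lists were chosen with earlier results of these data known. Of the listed IFN-stimulated genes, 1 is not reported here. It was left out of that list after its values were known, which moves the list's range and median too, and for that reason no count over it is given for *Tlr7* KO against WT.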

Additional observations from a re-analysis of the deposited data

How the results depend on the processing

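With each mouse left out in turn, 0 to 3 members were called lower in *Tlr7* KO against WT. In *Ifnar1* KO against WT, 0 to 8 were called lower and 0 to 1 higher. Between the KO lines, 1 to 8 were higher in *Tlr7* KO than in *Ifnar1* KO. The share of all genes moved too. Without WT 2, which gave the 3 and the 8 lower, 24.9% and 20.2% of all genes were lower, and 13.3% were higher in *Ifnar1* KO. Without *Ifnar1* KO 1, which gave 0 members in *Ifnar1* KO against WT, 0% of all genes were called. Without *Ifnar1* KO 2, which gave the 8 higher between the KO lines, 3.72% of all genes were higher. With library size only, 2 members were called lower and 0 higher in *Tlr7* KO (30.7% and 0.883% of all genes), and 4 lower and 0 higher in *Ifnar1* KO (9.24% and 0.366%). The log2 fold changes in *Tlr7* KO against WT then turned sign for *Ifih1* (-0.37), *Mavs* (-0.10), *Adar* (-0.38) and *Eif2ak2* (-0.30), while the median of all genes moved to -0.54. Leaving out single mice turned the sign of *Ddx58* (-0.43 to 0.12), *Ifih1* (-0.035 to 0.42), *Trex1* (-0.45 to 0.25) and *Adar* (-0.084 to 0.43) in that comparison, none of them called. In *Ifnar1* KO against WT, all 11 mice in 1 fit gave 7 members lower (19.1% of all genes), and leaving out WT 3 and *Ifnar1* KO 2 together, chosen after seeing the data, gave 1 lower and 0 higher (3.14% and 0.287%). In *Tlr7* KO against *Ifnar1* KO, all 11 mice in 1 fit gave 0 members higher (0.301%) and DESeq2 gave 7 (2.37%).

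Deviations of same-numbered mice had r of -0.40 to 0.030 in *Tlr7* KO against WT, -0.44 to -0.16 in *Ifnar1* KO against WT and 0.064 to 0.34 between the KO lines, in no comparison above 0.1 for all 3 pairs, so the numbers were not taken to pair them. With a replicate block, 0 members were called in either KO against WT (17 and 0 genes in all, and at an unadjusted p under 0.05, 0 lower and 1 higher in *Tlr7* KO and 4 lower and 1 higher in *Ifnar1* KO) and 8 were higher in *Tlr7* KO than in *Ifnar1* KO (2.91% of all genes), and *Ddx58* (0.11) and *Trex1* (0.22) turned sign in *Tlr7* KO against WT. Without the block, 6251 and 5235 of 13937 genes passed the unadjusted threshold in *Tlr7* KO and *Ifnar1* KO against WT. Those counts cover both directions and all mice of each comparison, and the share in the block fits was not counted. Of 420 alternative values for single members, 328 kept their direction and their side of the threshold, 51 lost the call, 29 gained it and 12 turned sign. The cause of these shifts was not tested. *Trex1* could not be fitted in the second table, where it is at 0. The fewest counts behind a member value were in *Ifnar1* KO, at 6 to 51 per mouse for *Zbp1* and 20 to 29 for *Dhx58*.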
